A study of Mus musculus with 6 samples.

Results

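The TRIM genes encode a family of ubiquitin ligases, and 66 of them were followed here among the 24411 genes listed for each library. Members were taken by name alone, as listed genes whose symbol begins with Trim and a number. RNA had been sequenced from macrophages of the inbred mouse strain C57BL/6. Bone marrow monocytes had been sorted as LFA1-hi Itgam-hi or as LFA1-lo Itgam-lo, and each fraction was then cultured for 7 days with 20 ng/ml M-CSF, the growth factor that turns monocytes into macrophages. The medium held 10% serum and was renewed on day 4 in both groups. The 3 LFA1-hi and 3 LFA1-lo libraries are named after the sort, which preceded the culture. Whether the 3 libraries per group stem from separate mice is not stated, so p-values measure the spread between these libraries, which may be technical.

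A TRIM protein is built from a RING finger, which recruits the ubiquitin-conjugating enzyme, then B-box zinc fingers and a coiled coil, followed by an end part that sets what the protein binds. The most common end part is the SPRY domain, and others are NHL repeats, a PHD finger with a bromodomain, a MATH domain or a membrane helix. In macrophages TRIM ligases are best known for tuning the signals that follow sensing of foreign RNA and DNA and for restricting viruses, and several are induced by interferon. Others act at the centrosome, on chromatin or on the cytoskeleton.

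Libraries held 15191262 to 17614509 counts. By these totals 3 counts corresponded to 0.170 to 0.197 CPM, which is counts scaled to the same library size. The CPM values of genes use adjusted totals, described under the processing, and differ slightly from that scale. Correlations of log CPM between libraries were 0.984 to 0.988 within LFA1-hi, 0.969 to 0.979 within LFA1-lo and 0.934 to 0.952 between the groups, and LFA1-lo replicate 2 had the lowest values with LFA1-hi libraries. Macrophage markers summed to 13850 to 16146 CPM in LFA1-hi and 17747 to 23026 CPM in LFA1-lo libraries, with 5 of 8 tested genes lower in LFA1-hi (Csf1r, Cd14, Adgre1, Lyz2 and Cd68; 3 without LFA1-hi replicate 2 or 3). Neutrophil markers summed to 85.7 to 108 CPM in LFA1-hi and 84.8 to 177 CPM in LFA1-lo. Mmp8, which was not called, made up most (means 94.3 CPM in LFA1-hi and 102 CPM in LFA1-lo). Of the 5 tested, 3 fell in LFA1-hi. Their means in LFA1-hi and LFA1-lo were 0.556 and 9.61 CPM for S100a9, 0.266 and 4.02 CPM for Ltf, and 0.569 and 10.4 CPM for Ngp. Markers of T and NK cells summed to 0.168 to 0.503 CPM in LFA1-hi and 3.64 to 5.23 CPM in LFA1-lo, where Cd4 made up most, and Cd3e, Cd3g, Ncr1, Gzma and Nkg7 were at 0 in all libraries. Dendritic cell markers reached at most 1.97 CPM in an LFA1-hi and 2.23 CPM in an LFA1-lo library (Flt3 and Ccr7 at 0), and B cell markers 3.02 CPM in LFA1-hi and 3.70 CPM in LFA1-lo (Pax5 and Ebf1 at 0). Red cell markers reached 0.279 CPM in LFA1-hi and 0.264 CPM in LFA1-lo (Hba-a2 and Hbb-bs at 0), and mast cell and basophil markers 0 CPM in LFA1-hi and 0.235 CPM in LFA1-lo (Cpa3, Fcer1a, Ms4a2 and Prss34 at 0). Progenitor markers summed to 5.22 to 6.44 CPM in LFA1-hi and 5.55 to 10.8 CPM in LFA1-lo libraries, with Kit lower in LFA1-hi (not without LFA1-hi replicate 2 or 3) and Mecom at 0. Over all tested genes 15.6% were lower in LFA1-hi by the test given below. The part of these other cells in the TRIM values was not tested.

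Levels were compared between genes in TPM, a share of all transcripts that corrects for their length. Of the 66 TRIM genes, 36 had enough counts to be tested, and 30 did not. Trim35, a SPRY-domain ligase first described in blood cell lineage switching, led with 93.1 ± 2.72 TPM in LFA1-hi and 93.1 ± 13.2 TPM in LFA1-lo libraries (SD, n = 3 each, as for the levels that follow). Trim8, which promotes NF-kB signalling through the kinase TAK1, stood at 82.1 ± 4.05 and 91.0 ± 6.66 TPM in LFA1-hi and LFA1-lo. Trim25, a ligase that ubiquitinates the RNA sensor RIG-I, was next over the 6 libraries, with 67.9 ± 0.949 TPM in LFA1-hi and 94.6 ± 9.27 TPM in LFA1-lo. Trim28, or KAP1, the corepressor through which KRAB zinc finger proteins silence retroelements, followed with 87.8 ± 2.09 and 66.5 ± 2.09 TPM in LFA1-hi and LFA1-lo. The order of the first 4 was therefore not the same in both groups. In LFA1-hi libraries Trim25 lay below the ranges of the other three, whereas in LFA1-lo libraries Trim28 did and the remaining ranges overlapped.

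Next in the order were Trim14, Trim30a, Trim47 and Trim44, with means over the 6 libraries of 45.7, 42.1, 41.5 and 32.3 TPM. Trim26 (26.2 TPM) and Trim41 (22.9 TPM) followed, and the lowest tested genes were Trim43c (0.595 TPM) and Trim6 (0.510 TPM). Summed over the 66 genes, TRIM transcripts made up 724 to 755 TPM in LFA1-hi libraries and 812 to 838 TPM in LFA1-lo libraries. The 34 genes placed in the class of a RING finger with a SPRY end part, which leaves out the RING-less Trim14 and Trim16, accounted for 387, 392 and 376 TPM in LFA1-hi replicates 1, 2 and 3 and for 438, 474 and 476 TPM in LFA1-lo replicates 1, 2 and 3.

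**Figure D1:**
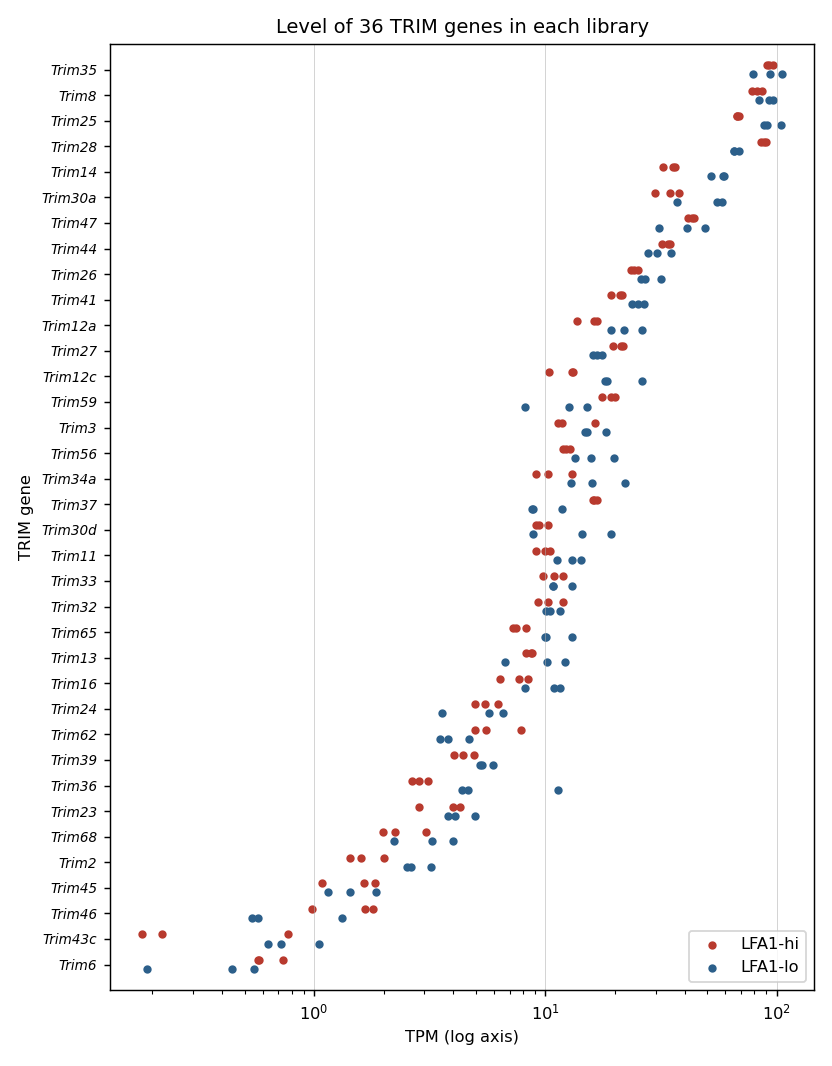
Level of each tested TRIM gene in TPM on a log axis, a point per library, with LFA1-hi drawn above LFA1-lo. Genes run from Trim35 at the top (mean over 6 libraries 93.1 TPM) to Trim6 at the bottom (0.510 TPM), and the single high point of Trim36 is LFA1-lo replicate 2 (11.3 TPM).

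The comparison asked how TRIM genes differ between macrophages grown from the LFA1-hi and from the LFA1-lo monocytes. Of the 36 tested, 14 passed a false discovery rate of 0.05 in edgeR's quasi-likelihood test adjusted over all tested genes, 5 higher and 9 lower in LFA1-hi. Over all 11692 tested genes the same rule called 31.7%, with 16.1% higher and 15.6% lower, so a call was common in this comparison. Differences were small, between 0.34 and 1.22 in size on the log2 scale, and 1 of the 14 genes, Trim36, reached 2-fold. The estimate was below 0 for 25 of the 36 and above 0 for 11, with a median of −0.22 where all tested genes had −0.005. For 17 of the 36 all LFA1-hi libraries lay on one side of all LFA1-lo libraries (6 with LFA1-hi above and 11 with LFA1-hi below), where all tested genes gave 47.8% (24.8% above and 22.9% below). In bulk RNA, fewer cells expressing a gene and less of its RNA per cell cannot be told apart. Of the tested genes 2, Trim43c and Trim6, had all 3 libraries over the filter on low counts in one group only (LFA1-lo for Trim43c and LFA1-hi for Trim6). On GRCm38, Trim37 and Trim25 lie on chromosome 11 (87126790 to 87250874 and 88999403 to 89020294), Trim14 on chromosome 4 (46505072 to 46536150) and Trim28 on chromosome 7 (13024152 to 13031032).

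**Figure D2:**
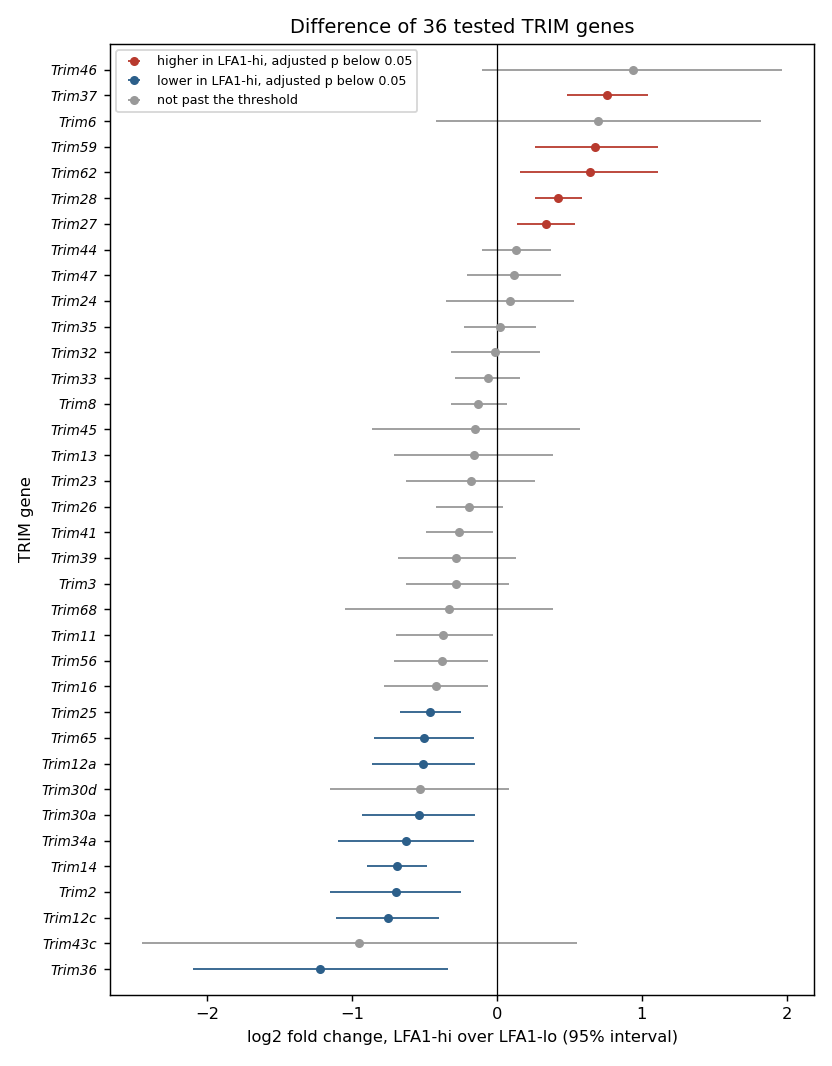
Log2 fold change of LFA1-hi over LFA1-lo for the 36 tested TRIM genes, with 95% intervals from the edgeR fit, sorted by size. Genes past the threshold are red where higher in LFA1-hi (Trim37 to Trim27) and blue where lower (Trim25 to Trim36), and grey genes did not pass.

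The lower genes included 4 neighbours on chromosome 7. There, 9 listed TRIM genes lay within 316.6 kb (GRCm38, 104218795 to 104535361), no 2 neighbours being over 100 kb apart. They were Trim6, Trim34a, Trim12a, Trim34b, Trim12c, Trim30b, Trim30a, Trim30d and the pseudogene Trim30e-ps1. These are rodent relatives of the primate TRIM5 locus, whose best known product binds the capsids of retroviruses. Of the 6 tested, Trim34a, Trim12a, Trim12c and Trim30a were lower in LFA1-hi, Trim30d had an estimate of the same sign that did not pass, and the estimate of Trim6 was above 0. The other 5 sets of TRIM neighbours held at most 2 tested genes each, so they offer little to compare with. They held 1 called gene in all, Trim65 beside Trim47 on chromosome 11. Of all tested genes, 15.6% were called lower and 31.7% were called in either direction.

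Trim12c, which in mouse cells promotes interferon and NF-kB signalling, was the gene of the set that passed in all fits run. It measured 26.5, 25.0 and 21.0 CPM in LFA1-hi replicates 1, 2 and 3, against 35.3, 36.4 and 50.5 CPM in LFA1-lo replicates 1, 2 and 3. All LFA1-hi libraries thus lay below all LFA1-lo libraries (log2 fold change −0.75, SE 0.16, edgeR adjusted p = 0.00676). The call held under all 19 alternatives, among them the 6 fits that left out a library. Trim12a, a close relative, had 12.5, 11.6 and 10.2 CPM in LFA1-hi and 15.6, 14.4 and 18.7 CPM in LFA1-lo libraries. Its groups did not overlap either (−0.51, SE 0.16, adjusted p = 0.0354), but of the fits without a library only that without LFA1-lo replicate 2 kept the call. Without any of the other libraries its adjusted p ran from 0.0659 to 0.138.

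Trim30a encodes a mouse ligase that limits NF-kB signalling by removing the adaptors TAB2 and TAB3. Its values were 70.1, 73.4 and 60.7 CPM in LFA1-hi and 71.9, 112 and 114 CPM in LFA1-lo libraries. LFA1-lo replicate 1 lay within the range of the LFA1-hi libraries (log2 fold change −0.54, SE 0.17, edgeR adjusted p = 0.0422). Without that library the value was −0.73 (adjusted p = 0.00298, where alternatives ran from 0.00298 to 0.157), and without any of the other libraries Trim30a did not pass. Trim30d, its neighbour, had 20.6, 17.5 and 17.8 CPM in LFA1-hi and 16.5, 37.9 and 26.5 CPM in LFA1-lo libraries. LFA1-lo replicate 1 was the lowest of all 6, and Trim30d did not pass (−0.53, adjusted p = 0.167). Leaving out that library gave −0.79 and a call (adjusted p = 0.0157, where alternatives reached 0.383), and leaving out LFA1-lo replicate 2 gave −0.21.

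Trim34a, the mouse relative of a human capsid-binding TRIM protein, had 13.9, 16.8 and 12.3 CPM in LFA1-hi and 16.6, 21.4 and 28.6 CPM in LFA1-lo libraries. The groups touched, since LFA1-hi replicate 2 exceeded LFA1-lo replicate 1 (−0.63, SE 0.21, edgeR adjusted p = 0.0446). Fits lacking LFA1-lo replicate 1 or 2 kept the call. Those lacking LFA1-lo replicate 3 (−0.40, adjusted p = 0.133, over alternatives of 0.0192 to 0.159) or an LFA1-hi library lost it. Trim6 stood at 1.17, 1.15 and 1.51 CPM in LFA1-hi and 1.07, 0.383 and 0.881 CPM in LFA1-lo. Its LFA1-hi libraries lay above, by an amount that did not pass (0.70, SE 0.50, adjusted p = 0.318). Genes of this set share sequence, so their counts are not independent. Of the 50-base stretches in Trim34a transcripts, 39.8% also occur in Trim34b, 24.2% of those in Trim12c occur in Trim5 (not analysed here), and 6.0% of those in Trim30a occur in Trim30d. Trim34a also shares 609 exon bases with Gm47248 on the opposite strand, and the use of strand in counting is not given in the sources used here.

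**Figure D3:**
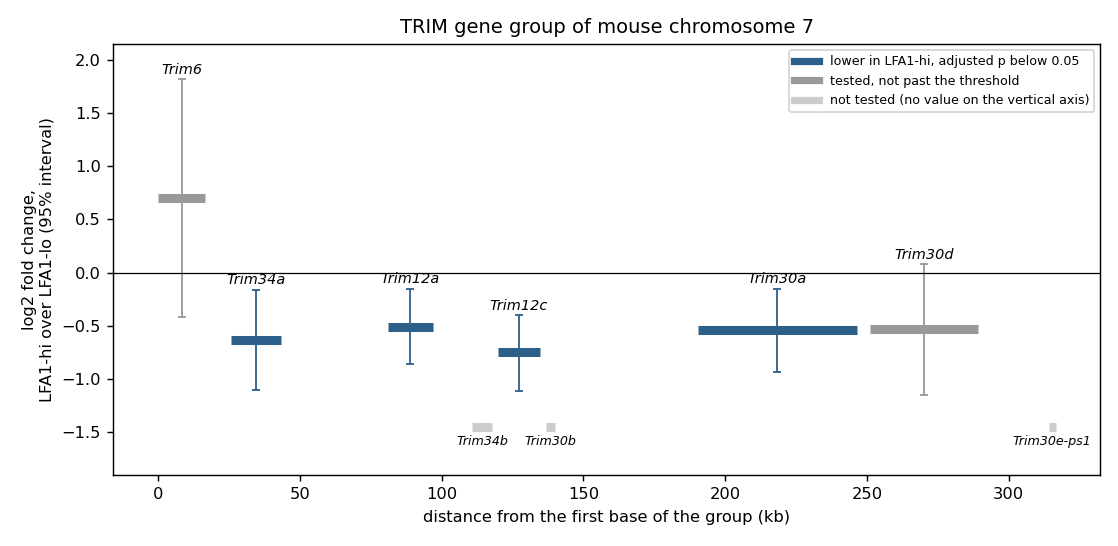
TRIM genes of the chromosome 7 group, each drawn as a bar over its span, with the distance in kb from the first base of the group on the horizontal axis and the log2 fold change of LFA1-hi over LFA1-lo with its 95% interval on the vertical axis. Trim34a, Trim12a, Trim12c and Trim30a lie below 0 with intervals that do not reach 0, and the pale bars mark genes that were not tested.

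The promoters of this set are shown because the genes called lower in it carry the same short motif near their start. The core of the interferon-stimulated response element, GAAA, any 2 bases and GAAA, was searched on both strands in RefSeq promoters of GRCm38.p6 that run from 250 bases before to 50 after a start. It occurs in 3.44% of 32851 promoters. Of the 64 promoters listed for 50 TRIM genes 8 hold it. They belong to 7 genes, all among the 26 tested genes with a listed promoter, namely Trim12a, Trim12c, Trim30a, Trim30d and Trim34a of the chromosome 7 set, and Trim2 and Trim26. Of these 7, 5 were called lower, and Trim26 and Trim30d were not called. In Trim2 the match begins at transcript base 29 of a listed start, and Trim2 has other listed starts without it. Over all tested genes 15.6% were called lower. The share among all tested genes whose promoter holds the motif was not computed. All matches lie on the reverse strand, so they read as TTTC, any 2 bases and TTTC in the direction of the gene, in capitals here.
Trim12c, chr7:104353350-104353402, minus strand: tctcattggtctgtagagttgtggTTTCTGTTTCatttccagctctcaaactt
Trim12a, chr7:104315466-104315495, minus strand: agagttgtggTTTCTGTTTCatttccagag
Trim30a, chr7:104465196-104465253, minus strand: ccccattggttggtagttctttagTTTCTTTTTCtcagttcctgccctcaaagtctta
Trim30d, chr7:104507857-104507914, minus strand: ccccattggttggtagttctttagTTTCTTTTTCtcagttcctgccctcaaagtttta
Trim34a, chr7:104244457-104244486, plus strand: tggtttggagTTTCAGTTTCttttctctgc
The match begins 29 bases before the start in Trim12c, 36 in Trim30a and 41 in Trim30d, and at transcript base 11 in both Trim12a and Trim34a. The 250 bases before the start are 90.8% identical between Trim30a and Trim30d and 80.0% between Trim12a and Trim12c, so the shared motif comes with shared flanks and the genes are not separate instances. Trim30a has another listed start, which holds the same match at transcript base 3. A match is a run of letters, not evidence of binding, and the listed promoter of Trim25, called lower, does not hold these letters.

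Other motifs were searched in the same way. TTCCCGCC, a form of the E2F site, is in 2.19% of all promoters and in that of Trim28, and TTTGGCGC, another form, is in 0.51% and in none of the TRIM promoters listed. The gamma-activated site TTCNNNGAA is in 8.30% of all promoters and in 6 of the 64 TRIM promoters. Of the tested genes, Trim45 and Trim46 hold it. A kappa B form, GGGA, any 4 bases and CC, is in 20.7% of all promoters and in 10 of the 64. Those 10 belong to 10 genes, 7 of them tested. The cyclic AMP element TGACGTCA is in 1.79% of all promoters and in 2 of the 64, those of Trim26 and the untested Trim52. The E-box CACGTG is in 7.15% of all promoters and in 3 of the 64, those of Trim25, Trim39 and Trim46.

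Trim25, Trim14 and Trim65, which act on sensors of foreign RNA and their adaptors, were also lower in LFA1-hi. Trim25, the third most abundant member, had 205, 198 and 211 CPM in LFA1-hi and 257, 321 and 266 CPM in LFA1-lo libraries. The groups did not overlap (log2 fold change −0.46, SE 0.09, edgeR adjusted p = 0.00584). All 19 alternatives kept the call. Trim14 lacks a RING finger and serves as an adaptor of the RNA sensing protein MAVS on mitochondria. It had 55.4, 59.2 and 60.6 CPM in LFA1-hi and 84.5, 99.9 and 97.7 CPM in LFA1-lo libraries. This was the call with the smallest adjusted p among TRIM genes (−0.69, SE 0.09, adjusted p = 0.000699), and it too passed under all 19 alternatives. Trim14 shares 163 exon bases with Gm16731 on the opposite strand.

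Trim65, a ligase of the RNA sensor MDA5, had 13.3, 11.2 and 12.0 CPM in LFA1-hi and 15.3, 16.3 and 20.2 CPM in LFA1-lo libraries. All LFA1-hi values were the lower ones (−0.50, SE 0.15, edgeR adjusted p = 0.0342), but fits lacking LFA1-lo replicate 3 or one of the LFA1-hi libraries lost the call. Trim56, which enhances signalling by the DNA sensing pathway through STING, had 23.3, 23.1 and 25.0 CPM in LFA1-hi and 37.0, 30.9 and 25.4 CPM in LFA1-lo. Its groups did not overlap, yet it did not pass (−0.38, SE 0.14, adjusted p = 0.0696). Fits lacking LFA1-lo replicate 2 or 3 called it, that lacking LFA1-lo replicate 1 gave −0.24, and its adjusted p over alternatives ran from 0.0148 to 0.240. Trim26, a SPRY ligase that targets IRF3, had a value of −0.19 (SE 0.10, adjusted p = 0.200).

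Among 21 signal proteins of RNA and DNA sensing, 7 fell and 1 rose in LFA1-hi, with a median of −0.21. Over all tested genes 15.6% were called lower and 16.1% higher. Ddx58, which encodes RIG-I, fell to 47.3 ± 5.01 CPM in LFA1-hi, against 90.6 ± 25.0 CPM in LFA1-lo (log2 fold change −0.94, edgeR adjusted p = 0.00784). Ikbke, a kinase that activates interferon regulatory factors, fell too (−0.92), as did Tab1, a partner of TAK1 (−0.81), whereas Mb21d1, the DNA sensor cGAS, rose to 25.2 ± 1.89 CPM in LFA1-hi, against 12.4 ± 1.64 CPM in LFA1-lo (1.02). Fits lacking LFA1-hi replicate 1, 2 or 3 gave 4, 3 or 4 falling genes.

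Of 20 interferon-induced genes 8 fell in LFA1-hi and none rose, with a median of −0.68. All tested genes gave 15.6% lower and 16.1% higher. Ifit3 fell to 10.9, 7.65 and 6.09 CPM in LFA1-hi, against 19.5, 77.0 and 53.1 CPM in LFA1-lo libraries (−2.60, SE 0.52, edgeR adjusted p = 0.0117). Ifit1 (−2.23), Isg15 (−1.89) and Rsad2 (−1.74) fell as well. Summed, the list stood at 605, 565 and 518 CPM in LFA1-hi replicates 1, 2 and 3 and at 579, 1252 and 1051 CPM in LFA1-lo replicates 1, 2 and 3. LFA1-lo replicate 1 was within the LFA1-hi range here, as it was for Trim30a. Leaving it out, 15 of the 20 genes fell. Leaving out LFA1-hi replicate 1, 2 or 3 gave 6, 4 or 3 falling genes, and leaving out LFA1-lo replicate 2 or 3 gave 3 each, with 1 rising gene in the fit lacking LFA1-lo replicate 2. Within LFA1-lo, Trim14, Trim25 and the uncalled Trim30d had the order of this sum, lowest in replicate 1 and highest in replicate 2. Trim12c, Trim30a, Trim34a, Trim65 and Trim2 were likewise lowest in replicate 1, whereas Trim36 was lowest in replicate 3. LFA1-lo replicate 1 lay above every LFA1-hi library for Trim14, Trim25, Trim12c, Trim65 and Trim2. It lay within the LFA1-hi range for Trim30a and Trim34a and below every LFA1-hi library for Trim30d. Within LFA1-hi, Trim12c had the order of the sum, highest in replicate 1 and lowest in replicate 3. Trim14 had the reverse order there, and Trim25 was highest in replicate 3. Trim12a was lowest in LFA1-lo replicate 2 (14.4 CPM), where the sum was highest. The part of these interferon-induced genes in the TRIM values was not tested.

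The 5 TRIM genes higher in LFA1-hi had different end parts and roles. Trim37 carries a MATH domain and limits the assembly of centrosomes. Its values were 50.6, 49.5 and 49.6 CPM in LFA1-hi and 25.9, 27.3 and 35.2 CPM in LFA1-lo libraries. This was the largest of the 5 rises, with no overlap (log2 fold change 0.76, SE 0.13, edgeR adjusted p = 0.00189). All 19 alternatives kept it. Trim28 had 148, 146 and 155 CPM in LFA1-hi and 114, 113 and 108 CPM in LFA1-lo libraries. Replicates lay close together in each group, and the rise passed under all 19 alternatives as well (0.42, SE 0.07, adjusted p = 0.00244).

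Trim59, a ligase held in the membrane of the endoplasmic reticulum, had 31.0, 28.4 and 27.1 CPM in LFA1-hi and 18.7, 12.6 and 22.4 CPM in LFA1-lo libraries. The LFA1-lo libraries were spread but all lower (0.68, SE 0.19, edgeR adjusted p = 0.0232). Of the fits lacking a library, those lacking LFA1-lo replicate 2 or 3 kept the call and the others lost it. Trim27, a SPRY ligase that works with the endosomal recycling machinery, had 44.8, 47.4 and 48.4 CPM in LFA1-hi and 36.3, 36.5 and 38.4 CPM in LFA1-lo. The groups were apart (0.34, SE 0.09, adjusted p = 0.0177), and fits lacking LFA1-hi replicate 2 or 3 or LFA1-lo replicate 1 lost the call. Trim62, which ubiquitinates the myeloid signal adaptor CARD9, had 8.44, 12.8 and 9.46 CPM in LFA1-hi and 6.15, 5.94 and 7.64 CPM in LFA1-lo. It passed narrowly (0.64, SE 0.21, adjusted p = 0.0475), and among the fits without a library only in that without LFA1-lo replicate 3.

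Genes of dividing cells were also higher in LFA1-hi, as were 16.1% of all tested genes. All 18 tested were higher in LFA1-hi (median 1.52), and their sum was 3237, 3360 and 3071 CPM in LFA1-hi and 1069, 971 and 1426 CPM in LFA1-lo replicates 1, 2 and 3. Rrm2 (1.99), Birc5 (1.75), Ccnb1 (1.73) and Bub1 (1.73) had the largest values. Within LFA1-lo, Trim59 and Trim62 had the order of this sum, lowest in replicate 2 and highest in replicate 3. Trim37 and Trim27 were also highest in replicate 3, and Trim28 was lowest there. Within LFA1-hi the sum was highest in replicate 2 and lowest in replicate 3. There Trim28 and Trim27 were highest in replicate 3, and Trim37 was lowest in replicate 2. Trim59 was lowest in LFA1-hi replicate 3, as the sum was, and Trim62 was highest in LFA1-hi replicate 2. The part of cell division in the TRIM values was not tested.

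Partners through which Trim28 silences chromatin were higher in 7 of 17 tested cases and lower in 2 (median 0.27). All tested genes gave 16.1% higher and 15.6% lower. Cbx5, the heterochromatin protein HP1 alpha, rose to 202 ± 6.14 CPM in LFA1-hi, against 81.5 ± 7.45 CPM in LFA1-lo (log2 fold change 1.31, edgeR adjusted p = 2.5e-05). Cbx3 (0.70) and Cbx1 (0.58), which encode HP1 gamma and beta, also rose, and Fam208a, a subunit of the HUSH silencing complex, fell (−0.82). Setdb1, the histone methyltransferase that Trim28 recruits, stood at 72.5 ± 0.202 CPM in LFA1-hi and 72.5 ± 2.71 CPM in LFA1-lo (−0.00, SE 0.08, adjusted p = 0.999). The number of rising partners was 3 without LFA1-hi replicate 3. Trim24 and Trim33, the other tested genes with a PHD finger and bromodomain, did not pass, at 0.09 (SE 0.19) and −0.06 (SE 0.10).

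The remaining lower genes were Trim36 and Trim2. Trim36, which binds microtubules through its COS box, had 6.60, 7.39 and 7.05 CPM in LFA1-hi and 10.9, 27.9 and 10.4 CPM in LFA1-lo libraries. LFA1-lo replicate 2 was far above the rest (log2 fold change −1.22, SE 0.38, edgeR adjusted p = 0.0428). Without it the value was −0.60 (adjusted p = 0.0195, where alternatives ran from 0.00283 to 0.114), and fits lacking an LFA1-hi library lost the call. Trim2, an NHL ligase known in neurons for removing neurofilament light chain, had 6.43, 5.48 and 8.01 CPM in LFA1-hi and 9.61, 10.5 and 12.3 CPM in LFA1-lo. The groups did not overlap (−0.70, SE 0.20, adjusted p = 0.0252), and fits lacking LFA1-hi replicate 1 or 2 or LFA1-lo replicate 3 lost the call. Trim46, another microtubule binder, did not pass in any fit (0.94, SE 0.46, adjusted p = 0.152), at 2.24 ± 0.660 CPM in LFA1-hi and 1.16 ± 0.572 CPM in LFA1-lo.

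**Figure D4:**
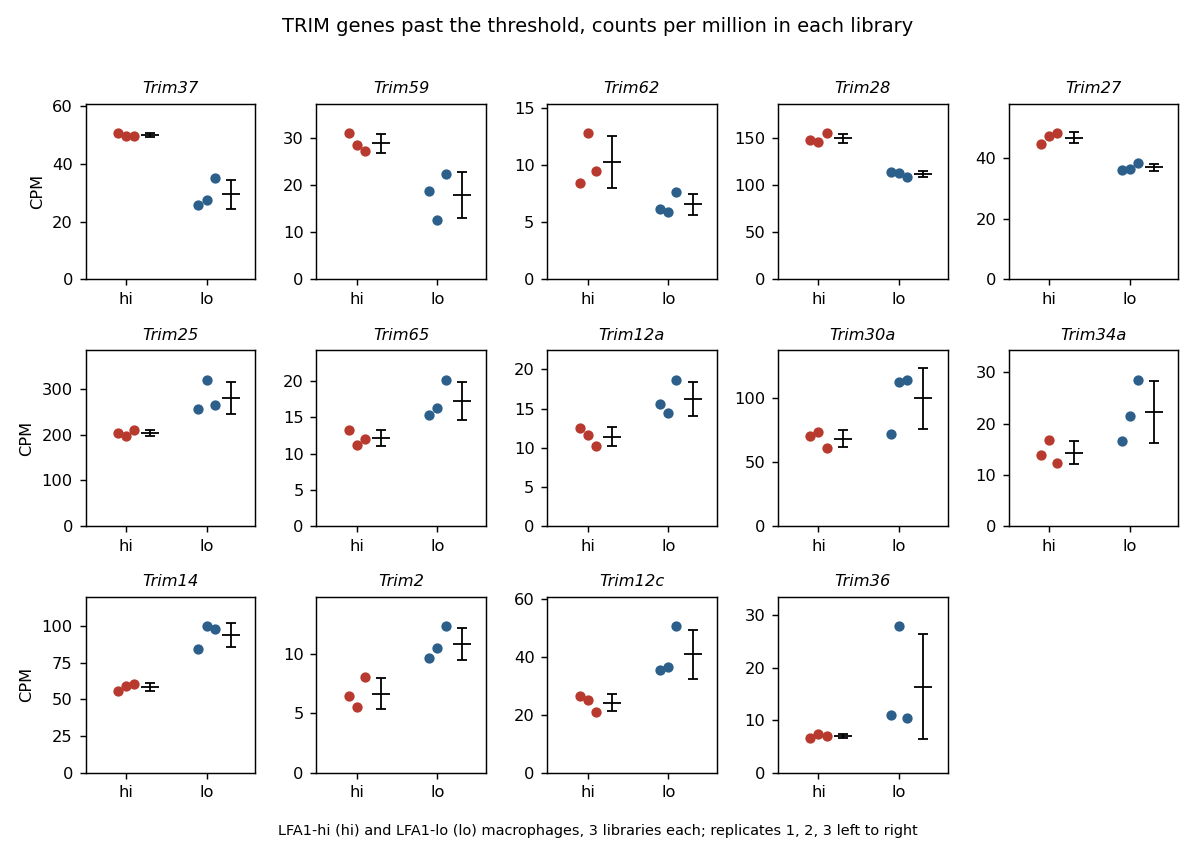
CPM in each library for the 14 TRIM genes past the threshold, on linear axes from 0, with LFA1-hi (hi) left of LFA1-lo (lo) and bars at mean ± SD (n = 3). Groups are apart for all but Trim30a and Trim34a, and the Trim36 difference carries a single high LFA1-lo library (27.9 CPM).

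Of the 22 tested genes that did not pass, 9 had a 95% interval within 1.5-fold in both directions. Trim35 had 183, 182 and 179.8 CPM in LFA1-hi and 178, 209 and 151 CPM in LFA1-lo (log2 fold change 0.02, interval −0.23 to 0.27). Trim8 (−0.13, interval −0.32 to 0.07), Trim44 (0.13, −0.10 to 0.37), Trim47 (0.12, −0.21 to 0.44) and Trim33 (−0.06, −0.29 to 0.16) were within the same bound. Trim44, which has a ubiquitin-protease type zinc finger in place of the RING, passed without LFA1-lo replicate 2 (0.25, edgeR adjusted p = 0.0177, over alternatives up to 0.712). Apart from Trim56 and Trim6, the groups did not overlap for Trim41 (−0.26, adjusted p = 0.0791), Trim11 (−0.37, adjusted p = 0.0923) and Trim39 (−0.28, adjusted p = 0.273), with the LFA1-hi libraries below. Trim11 passed without LFA1-lo replicate 2, as did Trim16 (−0.42, adjusted p = 0.0732), which takes part in the response to damaged lysosomes.

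The others not past the threshold were Trim43c (−0.95), Trim68 (−0.33), Trim3 (−0.28), Trim23 (−0.18), Trim13 (−0.16), Trim45 (−0.15) and Trim32 (−0.01). The intervals of Trim43c, Trim68 and Trim45 were wide, at −2.45 to 0.55, −1.05 to 0.39 and −0.86 to 0.57, and include changes of 1.5-fold. Those of Trim13 (−0.71 to 0.39), Trim23 (−0.63 to 0.26) and Trim3 (−0.63 to 0.08) include a fall of 1.5-fold as well. Trim43c was at −1.88 in the fit lacking LFA1-hi replicate 1, against −0.63 in that lacking LFA1-hi replicate 2. Trim3 was at −0.44 in the fit lacking LFA1-hi replicate 2, against −0.18 in that lacking LFA1-hi replicate 3. Trim43c shares 768 exon bases with an antisense transcript and 34.4% of its 50-base stretches with Trim43b.

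Of the 30 TRIM genes not tested, 18 had 0 counts in all 6 libraries. They were Trim10, Trim30e-ps1, Trim31, Trim40, Trim42, Trim43b, Trim50, Trim52, Trim54, Trim55, Trim58, Trim60, Trim61, Trim63, Trim67, Trim69, Trim71 and Trim80. Several of these are known from other tissues, such as Trim54, Trim55 and Trim63 from striated muscle and Trim58 from red cell precursors. A count of 0 in a library allows up to 0.170 to 0.197 CPM by unadjusted totals, depending on its depth, and covers counting error only. The other 12 had some counts. Trim66, a chromatin corepressor best known from testis, had 0, 1 and 0 counts in LFA1-hi and 17, 16 and 8 counts in LFA1-lo replicates 1, 2 and 3. It was 42.7-fold lower in LFA1-hi (95% counting interval 7.24 to 1726), and it passed when the filter was lifted (edgeR adjusted p = 0.0112).

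Trim34b had 0, 4.26 and 0 estimated counts in LFA1-hi and 27.34, 0 and 13.44 in LFA1-lo, but 56.8% of its 50-base stretches also occur in Trim34a, so its reads are uncertain. Trim38, which limits signalling through TAB2, had 7 counts in LFA1-hi and 0 in LFA1-lo, with 6 of the counts in LFA1-hi replicate 1. Setting LFA1-lo to 3 counts gives a ratio of 2.24. That ratio takes the 7 counts as exact, so it is not a lower bound. Trim9 had 4 and 0 counts in LFA1-hi and LFA1-lo. Summed counts in LFA1-hi and LFA1-lo were 16 and 14 for Trim17, 15 and 14.01 for Trim7, 15 and 9 for Trim15, and 7 and 15 for Trim30b. They were 6 and 9 for Trim29, 8 and 4 for Trim72, 4.26 and 5 for Trim43a, and 1 and 0 for Trim75. With the filter lifted, none of these 11 passed in edgeR.

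Of 11 TRIM relatives with other names, 4 were tested and 1 passed, where 31.7% of all tested genes did. The number higher in LFA1-hi was 0 in the fits lacking LFA1-hi replicate 2 or 3 or LFA1-lo replicate 1 or 3 and 2 in that lacking LFA1-lo replicate 2, and 1 relative was lower in the fit lacking LFA1-lo replicate 1. Fsd1l, a microtubule-associated relative that lacks the RING, rose to 20.3 ± 1.01 CPM in LFA1-hi, against 14.8 ± 1.93 CPM in LFA1-lo (log2 fold change 0.46, edgeR adjusted p = 0.0301). Pml, which organises nuclear bodies, stood at 57.2 ± 7.51 CPM in LFA1-hi and 57.3 ± 3.77 CPM in LFA1-lo, and Mid1, a microtubule ligase, narrowly missed (0.40, adjusted p = 0.0511). Mefv, or pyrin, had 3.30, 2.87 and 2.97 CPM in LFA1-hi and 2.92, 9.13 and 4.41 CPM in LFA1-lo and did not pass (−0.84, adjusted p = 0.137). Triml1, Triml2 and Fsd1 were at 0.

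Ubiquitin and its activating and conjugating enzymes, on which RING ligases depend, included 3 lower and 1 higher of 20 tested genes (median −0.00). Ube2e2, a conjugating enzyme, fell to 4.28 ± 1.27 CPM in LFA1-hi, against 11.5 ± 2.42 CPM in LFA1-lo (log2 fold change −1.43, edgeR adjusted p = 0.00356). Uba6, an activating enzyme, fell by 0.42 on the log2 scale, and Ube2w, which modifies protein amino termini, rose by 0.50. Fits lacking an LFA1-hi library gave 1 falling gene each and fits lacking LFA1-lo replicate 1, 2 or 3 gave 2, 3 or 3. Rising genes numbered 3 in the fit lacking LFA1-lo replicate 2, and 0 in those lacking LFA1-lo replicate 1 or LFA1-hi replicate 2 or 3. Of 20 deubiquitinases and other ligases of immune signalling, 4 fell and none rose (median −0.18). Over all tested genes, the comparison for both lists, 15.6% were called lower and 16.1% higher. Peli2 (−2.19) and Birc3 (−1.80), ligases of Toll-like receptor and TNF signalling, fell most, followed by Itch (−0.51) and Xiap (−0.38).

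Leaving out a library tested how far the 14 TRIM calls rest on single libraries. Trim12c, Trim14, Trim25, Trim28 and Trim37 passed in all 6 such fits, and the other 9 passed in 3 or fewer. Without LFA1-hi replicates 1, 2 and 3 the number of TRIM genes higher in LFA1-hi was 3, 2 and 2 and the number lower 4, 4 and 5. Without LFA1-lo replicates 1, 2 and 3 it was 2, 5 and 5 higher and 9, 12 and 6 lower. Each of these fits applied its own filter on low counts, so the numbers can include genes not tested in the full fit. The sign of all 14 held throughout.

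**Figure D5:**
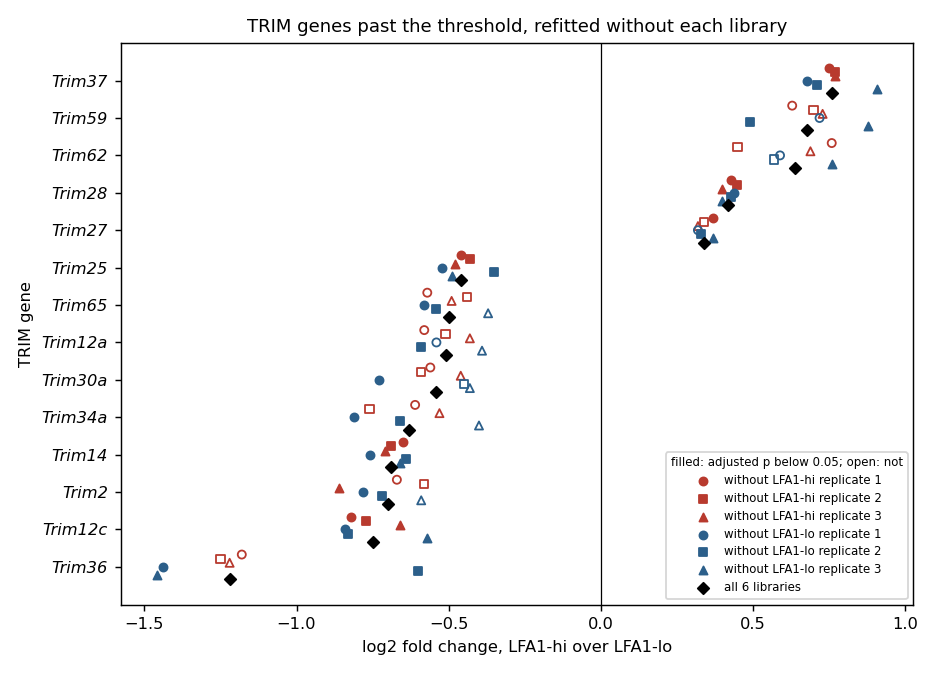
Log2 fold change of LFA1-hi over LFA1-lo for the 14 called TRIM genes in the fit of all 6 libraries (black diamonds) and in each fit that leaves out a library, filled where adjusted p was below 0.05. Trim37, Trim28, Trim25, Trim14 and Trim12c are filled throughout, and Trim36 moves to −0.60 without LFA1-lo replicate 2.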

How the data were processed

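Per the labels' protocols, RNA was extracted on column kits, depleted of ribosomal RNA and sequenced on a NextSeq2000. GRCm38, RSEM, Trim Galore and bcl2fastq are named in the submitters' processing notes. Tool versions, the aligner and the strand setting were not given in the sources used here. Each deposited table holds, per the file headers, expected counts per gene, which are not normalized, and TPM, scaled by effective length. A family gene and some genes of other lists are not reported here.

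Expected counts were rounded (5.53% to 6.06% of genes in a library were not whole), filtered with filterByExpr (11692 genes left), scaled by TMM (factors 0.956 to 1.034) and tested by LFA1-hi minus LFA1-lo in robust quasi-likelihood fits of edgeR 4.0.16 (R 4.3.3). P-values were adjusted over all tested genes by Benjamini and Hochberg, and calls were made at 0.05. CPM uses the TMM-scaled totals, except for the CPM of 3 counts, which uses unscaled totals. The procedure was tested on simulated data. Alternatives used DESeq2 1.42.0, limma 3.58.1 and other settings listed in the closing section. Figures used Python 3.11.15 and matplotlib 3.10.9.

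The TRIM genes and the gene lists were chosen with earlier results of these data known. All called TRIM genes are named, with library values, and untested genes by their counts; for other lists, up to 4 called genes with the largest changes, while others named were chosen after their values were seen. Positions are RefSeq's on GRCm38, overlaps GENCODE M21's. Promoters from RefSeq matched 50 of the 66 genes, 26 of them tested. Counting intervals and floors (3 counts) cover counting error only.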

Additional observations from a re-analysis of the deposited data

How the results depend on the processing

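Alternatives were RLE, upper quartile or library-total scaling, no filter, at least 10 CPM in 3 libraries, unrounded counts, a fit that is not robust, DESeq2, limma voom, limma-trend on log2(TPM + 0.1) or log2(TPM + 1), a threshold of 0.01, the replicate block and leaving out each library. At a threshold of 0.01, 2024 genes passed, 2 TRIM genes higher and 3 lower. The 9 TRIM genes lower in LFA1-hi became 5 with library totals only, with limma-trend at either pseudocount and with the replicate block. Same-numbered libraries did not deviate together (correlations 0.037, 0.018 and −0.072, and not every library correlated best with its own number). Whether they share a mouse is not stated, and these correlations, taken from means of 3 libraries, cannot decide it. With the replicate block 3253 genes passed, 4 TRIM genes higher and 5 lower, against 3705, 5 and 9. Without a library, 2288 to 5032 genes passed, 2 to 5 TRIM genes higher and 4 to 12 lower. Scaling by library totals moved the median of all genes by 0.062.

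No called TRIM gene changed sign under these alternatives. Signs turned only for uncalled genes near 0. Trim32 (−0.01 in the full fit) was at 0.01 with upper quartile scaling, 0.05 with library totals and 0.00 (positive) with no filter, and without a library it ran from −0.12 to 0.07. Trim45 was at 0.03 and 0.02 with limma-trend on TPM + 0.1 and TPM + 1, and without a library ran from −0.31 to 0.05. Fits without a library took Trim13 from −0.37 to 0.06, Trim24 from −0.11 to 0.26, Trim47 from −0.03 to 0.28, Trim35 from −0.09 to 0.14 and Trim33 from −0.11 to 0.02. The cause was not tested. Of 674 values of single TRIM genes under alternatives, 583 kept sign and side of the threshold, 70 no longer passed, 6 newly passed and 15 turned sign.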
